A study of Bos taurus with 50 samples.

Results

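MCOLN3 and TPCN1 encode cation channels of endosomes and lysosomes, and their RNA was followed here in the endometrium of lactating dairy cows. The genes were taken by their Ensembl identifiers, ENSBTAG00000016982 for MCOLN3 and ENSBTAG00000011102 for TPCN1, which are 2 of the 18830 genes in the table of read counts. Both passed the filter on low counts. They were chosen by their difference between cycling and non-cycling cows at week 5 and their change between weeks in the non-cycling cows. The difference between the status groups in the change between weeks was known as well. These values are therefore given as a description without a test.

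MCOLN3 (TRPML3) is a mucolipin, a channel of the transient receptor potential family that releases calcium and other cations from endosomes and lysosomes. TPCN1 (TPC1) is a two-pore channel of the same compartments, which carries sodium and calcium. Both channel families are gated by a phosphoinositide of the endolysosomal membrane that the kinase PIKfyve makes, and two-pore channels also take part in calcium release by the messenger NAADP. Mucolipins and two-pore channels act in membrane fusion, vesicle traffic and the recycling of lysosomes. The endometrial epithelium takes up and secretes large amounts of protein and lipid under ovarian steroids, and P4 from the corpus luteum is the hormone that distinguishes a cycling cow in the luteal phase.

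The biopsies came from first-lactation Holstein and Jersey crossbred cows at week 5 and week 9 postpartum, and mRNA was measured in 50 libraries. CycW5 cows had a corpus luteum and circulating P4 at the week 5 biopsy (10 libraries at week 5 and 10 at week 9). NoCycW5 cows had not cycled by week 5 and had no detectable P4 (12 and 11 libraries). The CycNoP4 group holds cows labelled as having resumed cycles with no P4 at week 5 (4 and 3 libraries). At week 9 the cows of all groups had been synchronized with GnRH, an intravaginal P4 insert and PGF2α and were biopsied on a fixed luteal day of the cycle, so at week 9 the group names refer to the status 4 weeks before. Each library is a biopsy of mixed cell types, in which fewer cells of a type and less RNA per cell cannot be told apart. Epithelial and stromal genes were present in every library: EPCAM, an epithelial adhesion molecule, was at 92.8 CPM or more (read counts scaled to library size and TMM-normalized), and PDGFRA, a stromal receptor, was at 269 CPM or more. Leucocyte, gland and smooth muscle markers had no identifier paired with a symbol and were not analysed here. Reads assigned to genes came to 21592867 to 32813237 per library, with a median of 28126022.5.

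Several libraries stood apart from their labels' group by the RNA of OXTR, the oxytocin receptor, which is low in luteal endometrium under P4. In NoCycW5 cows at week 5, OXTR was 80.2 to 222 CPM (median 111 CPM). Among the 31 libraries from CycW5 cows and from NoCycW5 cows at week 9, 6 had an OXTR level within or above that range. They were libraries 76, 80 and 91 (NoCycW5 week 9), 57 (CycW5 week 5), and 72 and 87 (CycW5 week 9), named by the number in their label. In 4 of these 6, libraries 57, 76, 87 and 91, MCOLN3 was 12.8 to 23.1 CPM, and in libraries 72 and 80 it was 154 and 155 CPM. For MCOLN3 and TPCN1, levels of the groups they belong to, and the comparisons that rest on them, are given below with and without these libraries. The 6 libraries were picked after the data were seen, and only from groups with higher mean levels of the channels than NoCycW5 cows at week 5. Libraries 57, 76, 87 and 91 were the lowest of their groups for MCOLN3. Larger differences or smaller P without the 6 libraries are therefore not added support. The labels give no hormone values for single libraries, and the part of OXTR or of P4 exposure in the levels of MCOLN3 and TPCN1 was not tested.

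MCOLN3 was lowest in NoCycW5 cows at week 5 and had higher medians in the other groups (plot of levels by group). In the NoCycW5 cows at week 5 the lowest library had 1.92 CPM, the median was 4.04 CPM and the highest library had 14.9 CPM (mean 5.5 ± 4.36 CPM, SD, n = 12). Libraries 14 and 65, with 14.2 and 14.9 CPM, were above the other 10, which had at most 5.59 CPM. At week 9 the same status group ranged from 22.6 to 330 CPM with a median of 233 CPM (mean 210 ± 107 CPM, SD, n = 11), and every week 9 library was above every week 5 library. The 2 lowest week 9 libraries, 76 and 91, had 22.6 and 23.1 CPM, and the next had 155 CPM. Without the libraries of high OXTR the week 9 range narrowed to 195 to 330 CPM (mean 264 ± 50.3 CPM, SD, n = 8).

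**Figure D1:**
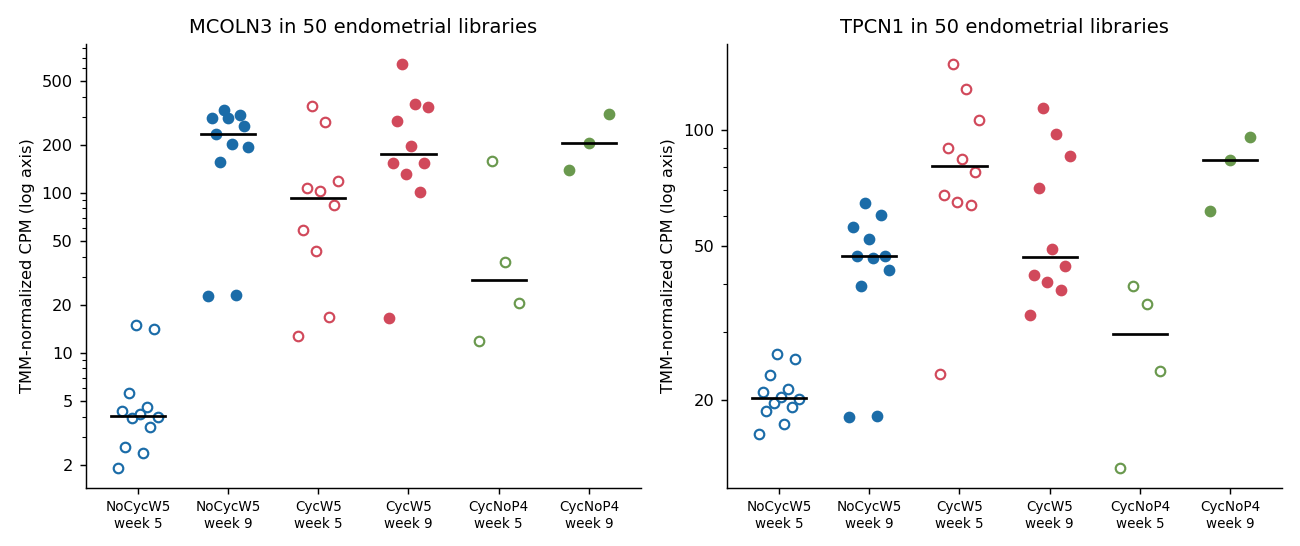
TMM-normalized CPM (log axis) of MCOLN3 (left) and TPCN1 (right) in each of the 50 libraries by status and week postpartum. Open circles are week 5, filled circles week 9, and black lines group medians. MCOLN3 medians run from 4.04 CPM (NoCycW5 week 5) to 233 CPM (NoCycW5 week 9), and TPCN1 medians from 20.3 CPM (NoCycW5 week 5) to 83.5 CPM (CycNoP4 week 9).

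In CycW5 cows, MCOLN3 varied more widely at both weeks than in the NoCycW5 cows at week 9. At week 5 it ranged from 12.8 to 349 CPM with a median of 93.3 CPM (mean 117 ± 111 CPM, SD, n = 10). Libraries 66 and 70, with 349 and 278 CPM, were the high end, and libraries 57 and 52, with 12.8 and 16.8 CPM, the low end. At week 9 the range was 16.5 to 638 CPM with a median of 175 CPM (mean 238 ± 178 CPM, SD, n = 10). Library 87, one of high OXTR, was the lowest, and library 101 the highest. Without the libraries of high OXTR the means were 129 ± 111 CPM at week 5 (SD, n = 9) and 276 ± 176 CPM at week 9 (SD, n = 8). Between the lowest and the highest library, MCOLN3 differed 27.3-fold at week 5 and 38.7-fold at week 9, against 7.8-fold and 14.6-fold in the NoCycW5 cows at week 5 and week 9.

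The 4 CycNoP4 libraries at week 5 had MCOLN3 at 11.9, 20.5, 36.8 and 158 CPM (libraries 64, 58, 56 and 51), and the 3 at week 9 had 139, 205 and 313 CPM. Library 51 was far above the other week 5 libraries of its group and within the range of the week 9 libraries. By group mean, MCOLN3 rose in the order NoCycW5 week 5 (5.5 CPM), CycNoP4 week 5 (56.9 CPM), CycW5 week 5 (117 CPM), NoCycW5 week 9 (210 CPM), CycNoP4 week 9 (219 CPM) and CycW5 week 9 (238 CPM). Neighbouring groups overlapped at every step of this order, at the first step by library 64 alone, and the means of the 3 week 9 groups lay within 1 SD of each other. Of the steps that were tested (below), the first passed the threshold and the second did not.

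TPCN1 had a narrower range and a different order of groups. In NoCycW5 cows at week 5 it was 16.4 to 26.3 CPM with a median of 20.3 CPM (mean 20.8 ± 3 CPM, SD, n = 12), and in the same status group at week 9 it was 18.1 to 64.6 CPM with a median of 47.2 CPM (mean 44.9 ± 15.1 CPM, SD, n = 11). Libraries 76 and 91, the low ones for MCOLN3, were again the lowest at week 9, with 18.2 and 18.1 CPM. The remaining 9 libraries, with 39.4 CPM or more, were all above the week 5 range. Without the libraries of high OXTR the week 9 mean was 49.6 ± 7.89 CPM (SD, n = 8).

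The highest TPCN1 values were in the cows that were under P4 at week 5. In CycW5 cows at week 5 it ranged from 23.4 to 148 CPM with a median of 80.9 CPM (mean 85.4 ± 35.3 CPM, SD, n = 10). Library 57 was the single low library of that group, and without it the lowest was 63.8 CPM (mean 92.3 ± 29.5 CPM, SD, n = 9). At week 9 the CycW5 range was 33.3 to 114 CPM with a median of 46.9 CPM (mean 61.7 ± 28.6 CPM, SD, n = 10), and the mean was 59.6 ± 28.4 CPM without libraries 72 and 87 (SD, n = 8). CycNoP4 cows had 13.4, 23.8, 35.4 and 39.5 CPM at week 5 and 61.7, 83.5 and 96.2 CPM at week 9, without overlap. Library 51, the highest of the CycNoP4 week 5 libraries for MCOLN3, was the lowest for TPCN1.

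The order of TPCN1 by group mean was NoCycW5 week 5 (20.8 CPM), CycNoP4 week 5 (28 CPM), NoCycW5 week 9 (44.9 CPM), CycW5 week 9 (61.7 CPM), CycNoP4 week 9 (80.5 CPM) and CycW5 week 5 (85.4 CPM). Neighbouring groups overlapped at every step of this order as well. CycW5 at week 5 had the highest mean of TPCN1 and a lower mean of MCOLN3 than the 3 week 9 groups. Levels of the 2 genes were not set against each other, because CPM are not corrected for transcript length.

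Differences in the comparisons known when the genes were chosen are described first (log2 fold changes from edgeR with their standard errors, SE). At week 5, MCOLN3 was 21.3-fold higher in CycW5 than in NoCycW5 cows (log2 fold change 4.42, SE 0.55) and TPCN1 was 4.1-fold higher (2.04, SE 0.23). For both genes, 9 of 10 CycW5 libraries were above the highest NoCycW5 library, and library 57 was not. Of the 15483 genes tested in this comparison, 26.6% were called, that is, had a P of 0.05 or less after adjustment by Benjamini-Hochberg (BH), and as shares of all genes tested 15.2% were higher and 11.4% lower in CycW5 cows. From week 5 to week 9 in NoCycW5 cows, MCOLN3 was 38.2-fold higher (5.26, SE 0.57) and TPCN1 2.16-fold higher (1.11, SE 0.22), where 35.7% of genes passed the threshold. The change between weeks in NoCycW5 cows exceeded that in CycW5 cows by 4.23 (SE 0.73) for MCOLN3 and by 1.57 (SE 0.32) for TPCN1 on the log2 scale, where 7.82% of genes were called, 4.99% with the larger change in NoCycW5 cows. Without the 6 libraries of high OXTR, the log2 values in these comparisons were 4.55, 5.58 and 4.47 for MCOLN3 and 2.15, 1.25 and 1.86 for TPCN1.

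**Figure D2:**
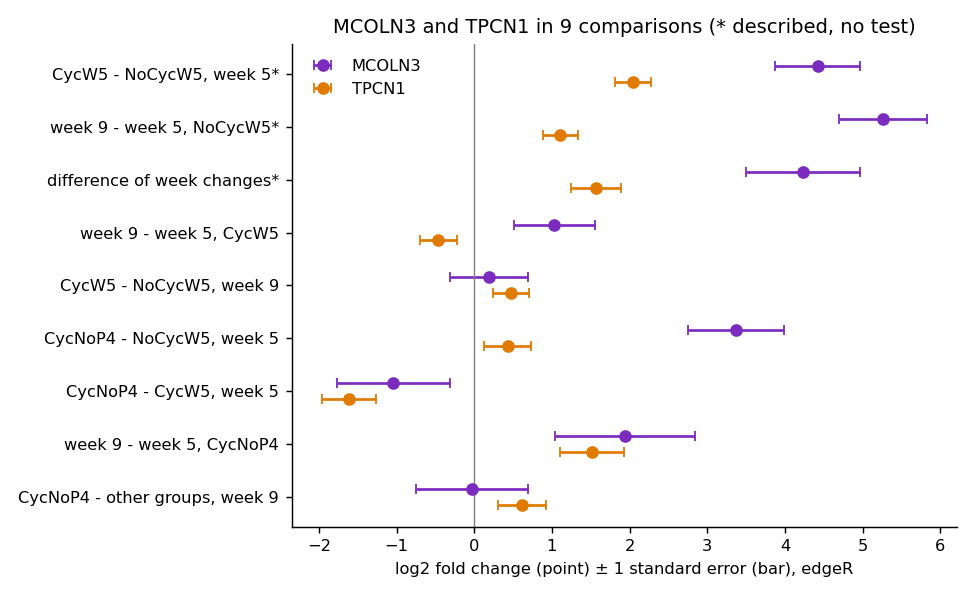
Log2 fold changes of MCOLN3 and TPCN1 in 9 comparisons, as points with bars of 1 standard error from the edgeR fit. An asterisk marks the comparisons known when the genes were chosen, which carry no test. MCOLN3 lies at 4.42 and 5.26 in the first pair of comparisons and TPCN1 at 2.04 and 1.11.

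The comparisons that follow were tested. Except between weeks in CycNoP4 cows, they use libraries from comparisons known when the genes were chosen, so their P are not independent of that choice. Between weeks in CycW5 cows, and between CycW5 and NoCycW5 cows at week 9, this holds for both sides. The week 5 and week 9 libraries of CycW5 cows were compared to ask whether the channels also changed with time in cows that already had P4 at week 5. MCOLN3 was 1.03 higher at week 9 on the log2 scale (SE 0.52, 95% interval 0.02 to 2.04), and the difference did not pass the edgeR test over all genes (BH P = 0.357). Of the week 9 libraries, 9 of 10 were above the week 5 median. Some week 5 and week 9 libraries of this group are neighbours in the column order and may share a cow, which was not tested. Among these neighbours MCOLN3 was lower at week 9 only in libraries 66 and 97 (349 and 344 CPM). It was higher at week 9 in the others, as in libraries 52 and 81 (16.8 and 282 CPM) and 57 and 87 (12.8 and 16.5 CPM). By group TPCN1 was lower at week 9, with a log2 fold change of -0.46 (SE 0.24, 95% interval -0.92 to 0) that did not pass either (edgeR, BH P = 0.369). Among the neighbours its direction was mixed. It was higher at week 9 in libraries 13 and 96, 45 and 72, 57 and 87, 66 and 97, and 70 and 101. It was lower at week 9 in libraries 52 and 81, 54 and 83, 59 and 89, and 67 and 98. Of the week 9 libraries, 7 of 10 were below the week 5 median of TPCN1. In this comparison 7 genes, or 0.0452% of those tested, passed the threshold by edgeR, 0.0129% being higher and 0.0323% lower at week 9. With library quality weights (limma-voom), where 3181 genes passed, both channels did: MCOLN3 at 1.77 (BH P = 0.00386) and TPCN1 at -0.58 (BH P = 0.0349), and without the 6 libraries of high OXTR TPCN1 passed at -0.62 (edgeR, BH P = 0.0425) and MCOLN3, at 1.11, did not (BH P = 0.107).

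At week 9, with biopsies timed to a luteal day in all groups, CycW5 and NoCycW5 cows were compared to ask whether the week 5 status left a difference. MCOLN3 differed by 0.19 on the log2 scale (SE 0.5, 95% interval -0.79 to 1.17, edgeR BH P = 0.957), and 4 of 10 CycW5 libraries were above the NoCycW5 median. TPCN1 was 0.47 higher in CycW5 cows (SE 0.23, 95% interval 0.02 to 0.92), which did not pass the adjustment over all genes (edgeR, BH P = 0.775). Only 1 gene of all those tested, or 0.00646%, passed the threshold here by edgeR (12 by DESeq2's Wald test). Without library 101, the highest for MCOLN3, its difference changed sign to -0.12. Without the 6 libraries of high OXTR the differences were 0.08 for MCOLN3 and 0.28 for TPCN1 (edgeR, BH P = 0.986 and 0.732).

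CycNoP4 libraries had no part in the choice of the genes, but the NoCycW5 and CycW5 libraries of week 5 with which they were compared did, the first as the low side and the second as the high side for both genes. In a fit of all 6 groups over 16120 genes, MCOLN3 was 10.3-fold higher in CycNoP4 than in NoCycW5 cows at week 5 (log2 fold change 3.37, SE 0.62, edgeR BH P = 0.000667), and 3 of 4 CycNoP4 libraries were above all NoCycW5 libraries, with library 64 at 11.9 CPM inside their range. This comparison called 16.4% of genes, 9.92% higher and 6.52% lower in CycNoP4 cows. The call rested on library 51: without it the log2 fold change was 2.07 and did not pass (edgeR, BH P = 0.0869), in a fit that called 0.95% of all genes. TPCN1 differed between the same groups by 0.43 (SE 0.3, 95% interval -0.16 to 1.02), which did not pass (edgeR, BH P = 0.318).

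Against CycW5 cows at week 5, TPCN1 was the channel that passed the test. It was 3.04-fold lower in CycNoP4 cows (log2 fold change -1.61, SE 0.35, edgeR BH P = 0.0018), with all 4 libraries below the CycW5 median of 80.9 CPM. The CycW5 side holds the high TPCN1 values by which the gene was chosen. MCOLN3 differed by -1.04 (SE 0.73, 95% interval -2.47 to 0.39), which did not pass (edgeR, BH P = 0.325). Without library 51 it differed by -2.34 (BH P = 0.0838), and without the libraries of high OXTR by -1.18 (BH P = 0.161). TPCN1 without the libraries of high OXTR differed by -1.72 (edgeR, BH P = 2.08e-05). On the CycW5 side this left out library 57, the lowest of that group for TPCN1 (23.4 CPM), so the larger difference is not added support. This comparison called 17.9% of genes, 9.62% higher and 8.29% lower in CycNoP4 cows. The TPCN1 difference passed with each compared library left out in turn (-1.82 to -1.37, BH P 0.000399 to 0.0223).

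Between week 5 and week 9 in CycNoP4 cows, TPCN1 rose 2.87-fold (log2 fold change 1.52, SE 0.41, edgeR BH P = 0.0101). All 3 week 9 libraries were above all 4 week 5 libraries. How many of all genes separate in this way was not counted, so the separation is a description only. In this comparison 19.6% of genes were called, 9.74% of all tested being higher and 9.85% lower at week 9. MCOLN3 was 1.94 higher on the log2 scale (SE 0.9, 95% interval 0.19 to 3.7), which did not pass (edgeR, BH P = 0.111). Without library 51 it was 3.25 higher and passed (edgeR, BH P = 0.0334), and without the libraries of high OXTR, none of them CycNoP4, the same 1.94 passed (edgeR, BH P = 0.0486). At week 9 the CycNoP4 cows differed from the mean of the other groups by -0.03 for MCOLN3 (SE 0.72, 95% interval -1.44 to 1.38) and by 0.61 for TPCN1 (SE 0.31, 95% interval 0 to 1.22). Without the libraries of high OXTR these values were -0.3 and 0.56 (edgeR, BH P = 0.976 and 0.914). Neither passed (edgeR, BH P = 0.996 and 0.782 with all libraries), and 0% of genes were called there by edgeR (959 had an unadjusted P under 0.05, and DESeq2's Wald test called 15).

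The nearest relative with an identifier was MCOLN2 (ENSBTAG00000046773), the mucolipin that stands next to MCOLN3 in the order of RefSeq genes. MCOLN2 averaged 15.7 ± 7.47 CPM in NoCycW5 cows at week 5 (SD, n = 12) and 79.3 ± 32 CPM at week 9 (SD, n = 11). In CycW5 cows it averaged 66.4 ± 64 CPM at week 5 and 105 ± 62.5 CPM at week 9 (SD, n = 10 each). It was higher in CycW5 than in NoCycW5 cows at week 5 (log2 fold change 2.09, SE 0.39, edgeR BH P = 9.33e-05), it rose between weeks in NoCycW5 cows (2.34, SE 0.38, edgeR BH P = 1.34e-05), and these changes between weeks differed between the status groups (1.66, SE 0.54, edgeR BH P = 0.0494). Its change in CycW5 cows, 0.67 (SE 0.4, edgeR BH P = 0.44), and its difference between CycNoP4 and NoCycW5 cows at week 5, 1.35 (SE 0.51, edgeR BH P = 0.057), did not pass. In CycNoP4 cows at week 5 MCOLN2 was 12.4 to 110 CPM, and library 51 was again the highest. MCOLN1, TPCN2 and TPCN3 had no identifier here and were not analysed. Identifiers came through tables of genes that the study had called on part of these libraries, so the calls of MCOLN2 are not independent evidence. Of all genes, 26.6% were called between CycW5 and NoCycW5 cows at week 5 and 35.7% between weeks in NoCycW5 cows. For the difference of the week changes it was 7.82%. How reads shared between related genes were counted is not given in the sources used here.

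The other neighbours with an identifier were LPAR3, a receptor for lysophosphatidic acid that lies beyond MCOLN2, and SLC8B1, the sodium/calcium exchanger of mitochondria, which lies next to TPCN1. LPAR3 was higher in CycW5 cows at week 5 (log2 fold change 2.39, SE 0.53, edgeR BH P = 0.000792) and rose in NoCycW5 cows (3.32, SE 0.54, edgeR BH P = 1.14e-05). SLC8B1 was higher in CycW5 cows at week 5 (1.21, SE 0.27, edgeR BH P = 0.000732) and rose in NoCycW5 cows (1.51, SE 0.26, edgeR BH P = 2.55e-05). In CycNoP4 cows SLC8B1, like TPCN1, was lower than in CycW5 cows at week 5 (-1.08, SE 0.37, edgeR BH P = 0.0376) and rose to week 9 (1.64, SE 0.45, edgeR BH P = 0.0114). The first of these did not pass with any 1 of 6 libraries left out (13, 51, 56, 58, 66 or 70; -1.16 to -0.85, edgeR BH P up to 0.119), and the second passed in each of 7 such fits. DNAI3, SYDE2, IQCD, RITA1 and OAS2, the remaining neighbours, had no identifier. LPAR3 and SLC8B1 had one because the study's tables of called genes list them. Their calls are therefore not independent evidence that neighbouring genes moved with the channels. The shares of all genes called were 26.6% at week 5 and 35.7% between weeks in NoCycW5 cows.

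Of 120 other genes of endolysosomal function, 28 had an identifier, and all 28 were tested. Their identifiers came through tables of genes that the study had called on part of these libraries, so counts over them are not independent evidence of a direction. At week 5, 12 were higher and 3 lower in CycW5 cows and 13 did not pass, with a median log2 fold change of 0.29 against -0.02 over all genes, of which 15.2% were higher and 11.4% lower. Between weeks in NoCycW5 cows, 15 rose, 4 fell and 9 did not pass (median 0.32 against -0.01), beside 19.4% of all genes that rose and 16.3% that fell. The changes between weeks differed between status groups for 9 of the 28, 8 of them more positive in NoCycW5 cows, beside 7.82% and 4.99% of all genes. In CycW5 cows 0 of the 28 passed between weeks, and 0 passed at week 9 between CycW5 and NoCycW5 cows (edgeR). In those comparisons 2204 and 992 of all genes had an unadjusted P under 0.05, and of the 28, DESeq2's Wald test called 1 and 0 (1.57% and 0.0775% of all genes) and limma-voom with quality weights 8 and 0 (20.5% and 0% of all genes). CycNoP4 cows at week 5 had 5 of the 28 higher and 1 lower than NoCycW5 cows, beside 9.92% and 6.52% of all genes. With 1 CycNoP4 library left out, this count of 6 ran from 0 without library 51, where 0.95% of all genes were called, to 12 without library 64, where 29.6% were. They had 2 higher and 3 lower than CycW5 cows, beside 9.62% and 8.29% of all genes, shares near this background, and this count of 5 ran from 1 without library 56, where 9.75% of all genes were called, to 6 without library 64, where 27% were. Between weeks in CycNoP4 cows 4 of the 28 rose and 2 fell, beside 9.74% and 9.85% of all genes, and this count of 6 ran from 1 without library 79 or 94, where 7.95% and 8.07% of all genes were called, to 7 without library 64, where 28.1% were. The counts of single lists that follow stand beside the same shares of all genes, 15.2% higher and 11.4% lower in CycW5 cows at week 5 and 19.4% that rose and 16.3% that fell between weeks in NoCycW5 cows, and carry the same limit of identifiers from tables of called genes.

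Among the other channels and transporters, 7 of 16 had an identifier, and 3 were higher and 0 lower both in CycW5 cows at week 5 and at week 9 in NoCycW5 cows (plot of other endolysosomal genes). CLCN4, a chloride/proton exchanger of endosomes, was 3.15-fold higher in CycW5 cows (log2 fold change 1.66, SE 0.27, edgeR BH P = 1.62e-05) and rose 3.44-fold in NoCycW5 cows (1.78, SE 0.27, edgeR BH P = 3.72e-06). CLCN3, an exchanger of the same family, had 1.08 (SE 0.15, edgeR BH P = 1.03e-06) and 1.12 (SE 0.15, edgeR BH P = 6.45e-07) in these comparisons. OSTM1, the partner subunit of the lysosomal chloride/proton exchanger, had 0.57 (SE 0.12) and 0.42 (SE 0.12), both called. CLCN3 and CLCN4 were also higher in CycNoP4 than in NoCycW5 cows at week 5, by 0.68 (SE 0.19, edgeR BH P = 0.014) and 1.08 (SE 0.33, edgeR BH P = 0.0221). Without library 51 neither passed (0.65 and 1.06, edgeR BH P = 0.0953 and 0.114), nor did they without library 56 (0.58 and 0.98, BH P = 0.0894 and 0.1).

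**Figure D3:**
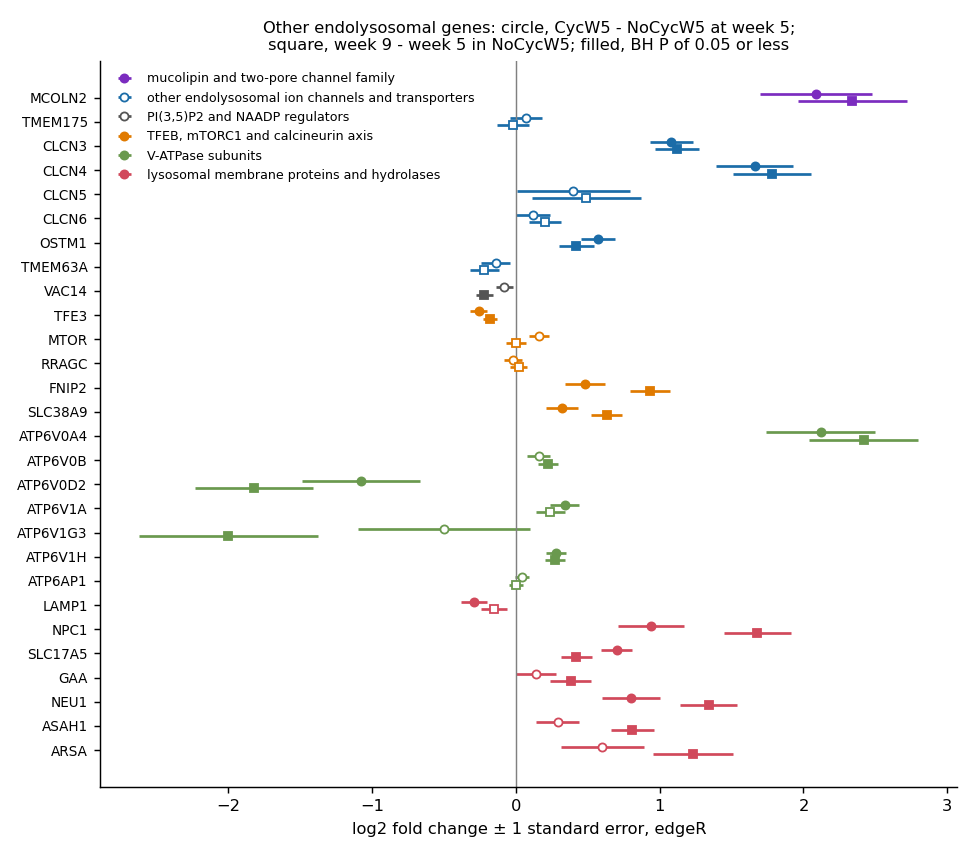
Log2 fold changes with bars of 1 standard error (edgeR) of the 28 other endolysosomal genes with an identifier, coloured by list. Circles are CycW5 against NoCycW5 at week 5, squares week 9 against week 5 in NoCycW5 cows, and filled symbols passed a BH P of 0.05 or less. MCOLN2 and ATP6V0A4 lie above 2 in both, and ATP6V0D2 lies at -1.08 and -1.82.

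V-ATPase subunits form the proton pump that acidifies endosomes and lysosomes. Of 7 with an identifier among 23, 3 were higher and 1 lower in CycW5 cows at week 5, and 3 rose and 2 fell between weeks in NoCycW5 cows. ATP6V0A4, an a-subunit isoform best known from kidney and epididymis, was 4.33-fold higher in CycW5 cows (log2 fold change 2.12, SE 0.38, edgeR BH P = 6.04e-05) and rose 5.36-fold in NoCycW5 cows (2.42, SE 0.38, edgeR BH P = 6.28e-06). ATP6V0D2, a d-subunit isoform known from osteoclasts, was lower (-1.08, SE 0.41, edgeR BH P = 0.0467) and fell (-1.82, SE 0.41, edgeR BH P = 0.000683). ATP6V1H had 0.28 (SE 0.07) and 0.27 (SE 0.07), both called, ATP6V1A passed only in the first (0.34, SE 0.1, edgeR BH P = 0.0145), and ATP6V1G3, at 4.81 CPM or less in all libraries, fell between weeks (-2, SE 0.62, edgeR BH P = 0.0107). ATP6V0A4 was lower in CycNoP4 than in CycW5 cows at week 5 (-1.95, SE 0.57, edgeR BH P = 0.0146), which did not pass without library 58 (-1.81, BH P = 0.0574).

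Lysosomal membrane proteins and hydrolases had 7 of 40 with an identifier. At week 5, 3 were higher and 1 lower in CycW5 cows, and 6 rose and 0 fell between weeks in NoCycW5 cows. NPC1, the cholesterol exporter of the lysosome, was 1.92-fold higher in CycW5 cows (log2 fold change 0.94, SE 0.23, edgeR BH P = 0.00218) and rose 3.19-fold in NoCycW5 cows (1.68, SE 0.23, edgeR BH P = 1.1e-06). The sialidase NEU1 had 0.8 (SE 0.2, edgeR BH P = 0.00338) and 1.34 (SE 0.2, edgeR BH P = 3.89e-06), and the sialic acid exporter SLC17A5 had 0.7 (SE 0.11, edgeR BH P = 1.64e-05) and 0.42 (SE 0.11, edgeR BH P = 0.00328). The acid ceramidase ASAH1 rose in NoCycW5 cows (0.81, SE 0.15, edgeR BH P = 5.07e-05), and LAMP1, a major membrane glycoprotein of lysosomes, was lower in CycW5 cows at week 5 (-0.29, SE 0.09, edgeR BH P = 0.0137).

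Regulators of lysosomal biogenesis and nutrient sensing had 5 of 23 with an identifier. TFE3, a transcription factor of lysosomal genes, was lower in CycW5 cows at week 5 (-0.26, SE 0.06, edgeR BH P = 0.000679) and fell between weeks in NoCycW5 cows (-0.18, SE 0.05, edgeR BH P = 0.00842). FNIP2, a partner of folliculin, had 0.48 (SE 0.14, edgeR BH P = 0.0115) and 0.93 (SE 0.14, edgeR BH P = 3.75e-06), and SLC38A9, the lysosomal arginine sensor, 0.32 (SE 0.11, edgeR BH P = 0.0366) and 0.63 (SE 0.11, edgeR BH P = 3.91e-05). VAC14, the scaffold of the PIKfyve complex and the 1 gene of 14 with an identifier among the regulators of the channels' ligands, fell between weeks in NoCycW5 cows (-0.22, SE 0.06, edgeR BH P = 0.00639). TFEB had no identifier.

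Genes whose levels ran most alike with MCOLN3 were found by Spearman's rho of log2 CPM over the 50 libraries, among 2250 of 16119 genes that had a symbol. The 50 points share groups, weeks and cell makeup, so the values are a description. The highest were SLC1A1, a glutamate transporter (0.95), IL6R, the interleukin 6 receptor (0.95), CDCP1, a membrane glycoprotein (0.94), MCOLN2 (0.93) and NPC1 (0.93). RAP2B, a small GTPase, and KIAA0141 were the most negative (-0.88 each). Most like TPCN1 were TPD52L1 (0.94), the deubiquitinase USP46 (0.94), OR9Q2 (0.93), MRPS36 (0.92) and the glutamate receptor subunit GRIN1 (0.92), and the most negative were the aldehyde oxidase AOX1 (-0.82) and the adhesion molecule CADM1 (-0.83). The lists of the channels held no gene in common. MCOLN3 and TPCN1 had a rho of 0.6 with each other, which placed TPCN1 at rank 1894 of all 16119 genes for MCOLN3. SLC8B1, the neighbour of TPCN1, had a rho of 0.87 with MCOLN3 and 0.63 with TPCN1.

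Within groups, MCOLN3 and TPCN1 did not vary together beyond the test's threshold. Spearman's rho between them was 0.15 in NoCycW5 cows at week 5 (n = 12, permutation BH P = 0.79), 0.23 at week 9 (n = 11, permutation BH P = 0.79), 0.09 in CycW5 cows at week 5 (n = 10, permutation BH P = 0.86) and 0.61 at week 9 (n = 10, permutation BH P = 0.28). These P were two-sided and adjusted over 36 correlations. Without the 2 libraries farthest from the median of TPCN1, rho was 0.61 (libraries 68 and 44), -0.4 (91 and 76), -0.19 (57 and 67) and 0.6 (101 and 72) in the same order of groups, so those of the NoCycW5 groups moved most. In NoCycW5 cows at week 9, Pearson's r was 0.88 (permutation BH P = 0.14) and turned to -0.47 without libraries 76 and 91, so it rested on these libraries.

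Markers of the epithelium moved with MCOLN3 (plot of levels against epithelial markers). Of 9 epithelial genes, EPCAM, the keratin KRT8 and the tight junction proteins CLDN3 and CLDN4 had an identifier, and all 4 were higher in CycW5 cows at week 5 (median log2 fold change 1.26) and rose between weeks in NoCycW5 cows (median 1.49), beside 15.2% and 19.4% of all genes. These 4 had an identifier because the study's tables of called genes list them, so the count is not independent evidence. Their summed level was 355 ± 74.2 CPM in NoCycW5 cows at week 5 (SD, n = 12), 863 ± 309 CPM at week 9 (SD, n = 11), 679 ± 325 CPM in CycW5 cows at week 5 and 824 ± 259 CPM at week 9 (SD, n = 10 each), and EPCAM took the most reads of them in every group mean (CPM, not corrected for length). In CycNoP4 cows it was 665 ± 211 CPM at week 5 (SD, n = 4) and 765 ± 292 CPM at week 9 (SD, n = 3). Library 51 had the highest sum of the CycNoP4 libraries at week 5, 938 CPM. At week 5 KRT8 and EPCAM were higher in CycNoP4 than in NoCycW5 cows (log2 fold change 0.92, SE 0.17, and 0.87, SE 0.3, edgeR BH P = 0.00074 and 0.0411). CLDN3 and CLDN4 did not pass there (0.64 and 1.26, edgeR BH P = 0.192 and 0.134). Against CycW5 cows CLDN3 was lower (-1.09, SE 0.39, edgeR BH P = 0.0456), and EPCAM, KRT8 and CLDN4 did not pass. CDH5 and VWF, the 2 endothelial markers with an identifier, were lower in CycW5 cows at week 5 (log2 fold change -0.43, SE 0.14, and -0.8, SE 0.2, edgeR BH P = 0.0207 and 0.00218). Between weeks in NoCycW5 cows VWF fell (-0.62, SE 0.19, edgeR BH P = 0.00968), CDH5 had -0.1 (SE 0.14, edgeR BH P = 0.594), and the week change of VWF was lower in NoCycW5 than in CycW5 cows (difference -0.99, SE 0.28, edgeR BH P = 0.0223). PDGFRA was not called in these comparisons. Within groups its rho with the channels ran from -0.67 (TPCN1, CycW5 week 9, permutation BH P = 0.2) to 0.43 (MCOLN3, NoCycW5 week 9, permutation BH P = 0.43), and none passed. In CycW5 cows at week 9, leaving out libraries 87 and 72 moved rho to -0.9 for TPCN1. For MCOLN3 it moved from -0.19 to -0.88. The part of cell makeup in the levels of the channels was not tested.

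**Figure D4:**
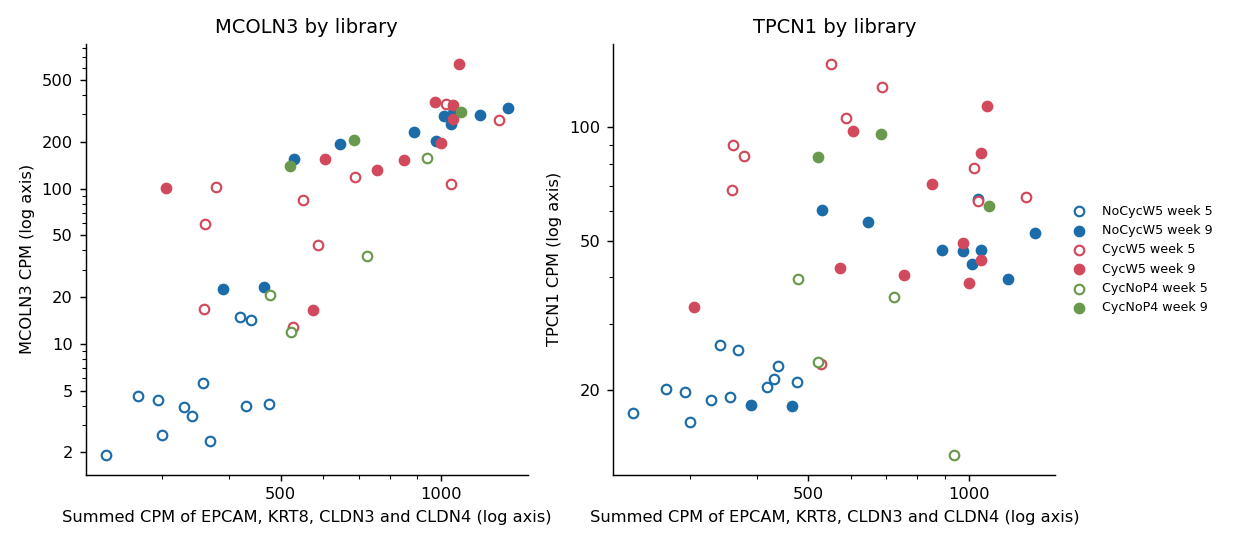
CPM of MCOLN3 (left) and TPCN1 (right) in each of 50 libraries against the summed CPM of EPCAM, KRT8, CLDN3 and CLDN4, all axes logarithmic. Colours are status groups, open circles week 5 and filled circles week 9. MCOLN3 climbs with the epithelial sum within NoCycW5 week 9 (rho 0.97), and the rho of TPCN1 there is 0.25.

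Within NoCycW5 cows at week 9, MCOLN3 followed the epithelial sum with a Spearman's rho of 0.97 (n = 11, permutation BH P = 0.00036, the smallest that 100000 permutations and 36 correlations allow) and a Pearson's r of 0.88 (permutation BH P = 0.0011). Without libraries 76 and 91, the farthest from the median sum, rho was 0.95 and r was 0.91. In CycW5 cows at week 9 rho was 0.87 (n = 10, permutation BH P = 0.04) and r was 0.62 (permutation BH P = 0.22). Without libraries 89 and 87, rho fell to 0.76 and r was 0.74. In CycW5 cows at week 5 (rho 0.75, n = 10, permutation BH P = 0.15) and NoCycW5 cows at week 5 (rho 0.39, n = 12, permutation BH P = 0.44) the relation did not pass. For TPCN1 the corresponding rho values were 0.25, 0.48, -0.16 and 0.62 in the same order of groups, and none passed (permutation BH P 0.79, 0.4, 0.79 and 0.2). Without the 2 farthest libraries they were -0.37, 0.14, 0.36 and 0.53, so that the first and the third changed sign.

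The changes of the epithelial genes are given beside those of the channels. In NoCycW5 cows the epithelial genes changed between weeks by 0.64 (KRT8, SE 0.12), 1.09 (EPCAM, SE 0.23), 1.89 (CLDN3, SE 0.26) and 2.83 (CLDN4, SE 0.49) on the log2 scale, beside 5.26 for MCOLN3 and 1.11 for TPCN1. The difference between these values was not tested.

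OXTR and the channels were placed side by side for each library (plot of levels against OXTR). In the NoCycW5 cows at week 9, the 8 libraries with OXTR below 80.2 CPM had MCOLN3 at 195 to 330 CPM, and the 3 above it had 22.6, 23.1 and 155 CPM. In CycW5 cows at week 9, library 87, with OXTR at 178 CPM, had MCOLN3 at 16.5 CPM and TPCN1 at 42.2 CPM, and library 72, with OXTR at 111 CPM, had 154 and 97.8 CPM. In CycW5 cows at week 5, low MCOLN3 was found at both high and lower OXTR: library 57, with OXTR at 151 CPM, had 12.8 CPM, and library 52, with OXTR at 44.5 CPM, had 16.8 CPM. The CycNoP4 libraries at week 5 were all high in OXTR, at 120 to 277 CPM, and library 51 combined high OXTR with the MCOLN3 level of 158 CPM. Over the 50 libraries the rho of OXTR was -0.72 with MCOLN3 and -0.59 with TPCN1. Within NoCycW5 cows at week 9 the rho with MCOLN3 was -0.79 (n = 11, permutation BH P = 0.065) and Pearson's r was -0.83 (permutation BH P = 0.002). Without libraries 91 and 76, rho was -0.63 and r was -0.82. In the other groups the rho of OXTR with MCOLN3 was -0.13 (NoCycW5 week 5), -0.54 (CycW5 week 5) and -0.56 (CycW5 week 9), and none passed (permutation BH P 0.79, 0.3 and 0.28). The rho of OXTR with TPCN1 in NoCycW5 cows at week 9 was -0.2 (n = 11, permutation BH P = 0.79), and Pearson's r turned from -0.56 to 0.5 without libraries 91 and 76. In the other groups it was 0.15 (NoCycW5 week 5), -0.58 (CycW5 week 5) and -0.13 (CycW5 week 9), and none passed (permutation BH P 0.79, 0.28 and 0.82). ESR1, the estrogen receptor, was 127 ± 55.2 CPM in NoCycW5 cows at week 5 (SD, n = 12) and 79.8 ± 29.5 CPM at week 9 (SD, n = 11), and its rho over the 50 libraries was -0.57 with MCOLN3 and -0.18 with TPCN1. PGR, the P4 receptor, had no identifier.

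**Figure D5:**
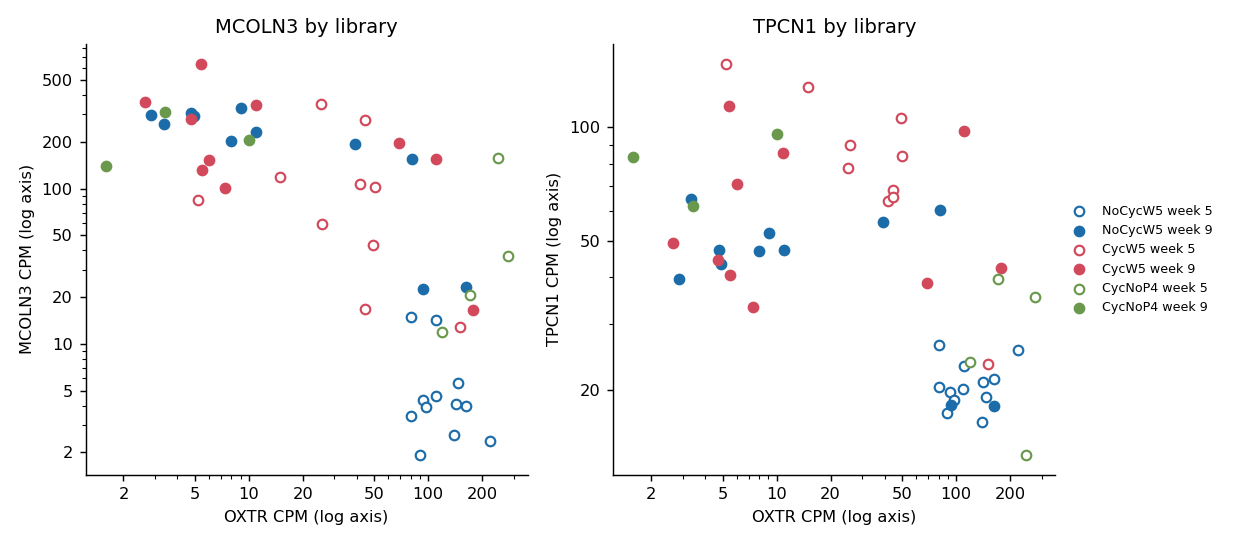
CPM of MCOLN3 (left) and TPCN1 (right) in each of 50 libraries against OXTR CPM, all axes logarithmic. Colours are status groups, open circles week 5 and filled circles week 9. NoCycW5 week 5 libraries lie together at OXTR of 80.2 to 222 CPM with MCOLN3 at 14.9 CPM or less, and library 51 stands above them at 158 CPM.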

How the data were processed

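Endometrial mRNA was measured in 50 libraries (stranded TruSeq kit, single-end reads). The authors trimmed reads with cutadapt and fqtrim, mapped these with Hisat2 (genome build UMD3.1) and deposited raw counts per Ensembl gene from FeatureCounts. Tool versions, the strand setting and the treatment of reads shared by related genes are not given in the sources used here. The submitters' processing notes also name StringTie and edgeR. All 50 columns were mapped to labelled samples.

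Counts were normalized by TMM, filtered with filterByExpr and tested with edgeR 4.0.16 in R 4.3.3 (robust quasi-likelihood test; genes were called where the BH P over all genes was at most 0.05). CycW5 and NoCycW5 libraries of both weeks were fitted as 4 groups over 15483 genes, and CycNoP4 contrasts came from a fit of 6 groups over 16120 genes. The spread is thus shared between groups. Standard errors are the log2 fold change divided by the root of F, with normal 95% intervals. CPM used TMM over all 50 libraries. Correlations within groups used log2(CPM + 0.1) and 100000 permutations. limma 3.58.1 (voom, without and with library quality weights) and DESeq2 1.42.0 (Wald test, size factors), no filter, a filter of at least 1 CPM in at least 10 libraries, other sets of groups and leaving out each library in turn were alternatives. The pipeline was tested on simulated data.

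The labels do not link libraries to cows, so the comparison of weeks was unpaired and the study's terms for cow and microbiota were left out. They do not state batches. P-values therefore measure the spread between these libraries. Over 220 pairs of libraries within groups and 15247 genes the mean chi-square per gene was at least 27.9, so no library was counted as a repeat of another.

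The members and lists were chosen with earlier results of these data known. Symbols were paired with Ensembl identifiers through the study's tables of called genes (2729 identifiers, 2323 with a symbol). The RefSeq gene table (assembly ARS-UCD2.0) was used for the order of neighbouring genes only, because its build differs from that of the files, and no sequence was used. The genes named were the channels, their families, up to 3 called genes with the smallest BH P per list in the week 5 status and the NoCycW5 week comparisons, the 5 most alike and 2 most opposite genes by Spearman's rho, the 2 nearest neighbours on each side, TFEB and the hormone receptors. ATP6V1G3 and LAMP1 lie outside this rule and were named after their values were seen. Cell type markers came from fixed lists.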

Additional observations from a re-analysis of the deposited data

Results flagged for a closer look

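In groups of 4 to 10 libraries, the highest or lowest value was set apart from the rest by Dixon's 95% criterion in 13 of 66 combinations of 22 named genes and 3 groups. Chance gives about 1 in 20 only for independent values with a normal spread. CPM were used here without a logarithm and the genes share libraries, so 13 of 66 is not evidence of an excess. Both mucolipins were far above the other CycNoP4 libraries at week 5 in library 51, MCOLN3 at 158 CPM and MCOLN2 at 110 CPM. VAC14 was apart in library 64 of that group, at 42 CPM. Among the CycW5 libraries at week 5, MCOLN2 was high in library 66 (224 CPM), OXTR (151 CPM) and TFE3 (92.7 CPM) in library 57, and FNIP2 (38.9 CPM), ATP6V0A4 (102 CPM) and LPAR3 (121 CPM) in library 70. At week 9 in the CycW5 libraries, ATP6V1A (167 CPM) and ATP6V1H (76.9 CPM) were high in library 72, TFE3 in library 89 (109 CPM) and ATP6V0D2 in library 92 (6.06 CPM).

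For 11 of the named genes, NoCycW5 and CycW5 cows had different changes between weeks (edgeR, test of the difference itself). The share of all genes was 7.82%, but most of these genes were named for small P in the week 5 status and NoCycW5 week comparisons, which share libraries with this one, so their number says nothing beyond that choice. The difference, NoCycW5 minus CycW5 on the log2 scale, was largest for LPAR3 (2.84) and ATP6V0A4 (2.4) among these 11. It was 1.71 for CLCN4, 1.66 for MCOLN2, 1.2 for NPC1, 1.18 for SLC8B1, 0.97 for NEU1, 0.94 for CLCN3, 0.78 for FNIP2, 0.61 for SLC17A5 and -0.28 for TFE3.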

How the results depend on the processing

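No paired analysis was possible because the labels do not link libraries to cows and the replicate numbers only name samples. The depth does not differ between groups by more than its range within them, and no value here rests on a count of 0. CycNoP4 has 4 and 3 libraries, and several of its calls turned on single libraries. The call of MCOLN3 between CycNoP4 and NoCycW5 cows kept its side of the threshold under 8 alternatives (log2 fold change 2.68 to 3.42, BH P 3.91e-05 to 0.0437) and ranged from 2.07 to 3.71 with 1 library left out, being lost without library 51 (BH P = 0.0869). TPCN1 between CycNoP4 and CycW5 cows (-1.72 to -1.51) and between weeks in CycNoP4 cows (1.38 to 1.6) kept its call under 8 alternatives and with each library left out (-1.82 to -1.37 and 1.29 to 1.73).

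MCOLN3 between CycNoP4 and the other groups at week 9 changed sign with limma-voom (0.33) and ranged from -0.37 to 0.21 with 1 library left out, and MCOLN3 between CycW5 and NoCycW5 cows at week 9 ranged from -0.12 to 0.33. Neither was called in any of these fits. MCOLN3 between weeks in CycNoP4 cows ranged from 1.56 to 3.25 with 1 library left out, passing at 3.25 without library 51. With library quality weights, the change between weeks passed for MCOLN3 in CycW5 (1.77) and CycNoP4 cows (2.71) and for TPCN1 in CycW5 cows (-0.58). Without the 6 libraries of high OXTR, an alternative chosen after seeing the data, TPCN1 in CycW5 cows (-0.62) and MCOLN3 in CycNoP4 cows (1.94, BH P = 0.0486) passed between weeks.

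Counts of other endolysosomal genes called moved by over 1.5 times in 5 comparisons. Between weeks in CycW5 cows the count was 0 by edgeR, 1 with DESeq2's Wald test (1.57% of all genes), 8 with quality weights (20.5% of all genes) and 4 without the 6 libraries (6.7% of all genes). For the difference of the week changes it was 9 by edgeR, 5 with limma-voom (4.01% of all genes), 12 with quality weights (20.4% of all genes) and 12 without the 6 libraries (22.6% of all genes). Against CycW5 cows the CycNoP4 count was 5 by edgeR, 3 with quality weights (19.3% of all genes), 3 with only the groups compared (11.5% of all genes), 8 without the 6 libraries (22.4% of all genes) and 1 to 6 with 1 library left out (6.9% to 27% of all genes). Against NoCycW5 cows it was 6 by edgeR, 10 without the 6 libraries (20.5% of all genes) and 0 to 12 with 1 library left out (0 without library 51, 1 without library 56 and 12 without library 64, where 0.95%, 5.3% and 29.6% of all genes were called). Between weeks in CycNoP4 cows it was 6 by edgeR, 1 with only the groups compared (8.1% of all genes) and 1 to 7 with 1 library left out (7.95% to 28.1% of all genes). The cause of these shifts was not tested. For all genes, quality weights called 6044 at week 5 and 8562 between weeks in NoCycW5 cows. The number of correlations past the threshold by Spearman's rho, 2, was the same with the epithelial sum of EPCAM and KRT8 alone (chosen after seeing the data), DESeq2 size factors and CPM without a logarithm.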

Other observations

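The ratio of MCOLN3 CPM to TPCN1 CPM within a library, which compares libraries and not the genes' abundance, had medians of 0.203 in NoCycW5 cows at week 5 and 4.29 at week 9, 0.794 and 3.63 in CycW5 cows, and 0.78 and 2.13 in CycNoP4 cows. The highest ratio among all libraries was 11.8, in library 51.

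TMEM63A, an osmosensitive membrane protein of the channel list, was lower in CycNoP4 than in NoCycW5 cows at week 5 (log2 fold change -0.55, SE 0.16, edgeR BH P = 0.0147), which did not pass without library 51, 56 or 58 (-0.44, -0.49 and -0.5, edgeR BH P = 0.148, 0.0872 and 0.059). TMEM175, the lysosomal potassium and proton channel, was lower in CycNoP4 than in CycW5 cows at week 5 (-0.49, SE 0.16, edgeR BH P = 0.0276), and this call was lost in 4 of 14 fits with 1 library left out (without library 51, 56, 58 or 66). Between weeks in CycNoP4 cows, TMEM175 (0.57, SE 0.2, edgeR BH P = 0.0384) and the arylsulfatase ARSA (1.34, SE 0.49, edgeR BH P = 0.0491) each lost their call in 6 of 7 such fits, all but the one without library 64. ASAH1 (0.9, SE 0.27, edgeR BH P = 0.0192) lost it without library 58 or 79 (0.83 and 0.45, edgeR BH P = 0.0521 and 0.291), and ATP6V0D2 (-2.54, SE 0.8, edgeR BH P = 0.023) without library 58, 79 or 94 (-2.05, -2.38 and -2.31). These genes were named after their values were seen.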
